A study of Mus musculus with 2 samples.

Results

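Antigen presentation by major histocompatibility complex (MHC) class II molecules was followed through 7 of the 31053 genes counted, across the cell types of mouse liver lesions. They were H2-Aa, H2-Ab1 and H2-Eb1 (chains of the class II molecule), Cd74 (the invariant chain), H2-DMa and H2-DMb1 (the peptide exchange factor) and Ciita (the transactivator). The members were selected on their CPM and shares of barcodes across the cell classes of these same libraries, where earlier results had shown class II RNA in hepatocyte barcodes, so their levels are a description without a test. Class II molecules carry peptides from endosomes to the cell surface, where CD4+ T cells read them. The alpha and beta chains assemble on the invariant chain, which blocks the groove until cathepsins degrade it, and the H2-DM heterodimer then exchanges the last fragment for a peptide. Ciita switches on the whole set, constitutively in dendritic cells, B cells and some macrophages and through interferon gamma in many other cells, whereas normal hepatocytes are known to lack class II.

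The study took single cells from the Rb family triple knockout model of hepatocellular carcinoma at a late and an early stage. The groups were macroscopic lesions, for which the number of mice is not given, and early lesions, a pool of 3 mice. Both were untreated primary liver cells in which floxed alleles had been recombined by Cre, marked by YFP and sorted by flow cytometry as YFP+ after enzymatic digestion. The sources used here give neither the promoter driving Cre nor the strain, sex and age. Each stage is 1 library made with 10x 3' v3 chemistry, so no comparison has a replicate, no p-value is given, and stage, animal, sex and preparation cannot be told apart.

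The macroscopic library held 241 barcodes with at least 1000 unique molecular identifiers (UMIs), of 256, at a median of 14223 UMIs, and the early library held 2620, of 3221, at a median of 2946 UMIs. No barcode was shared between the libraries. Xist, which female cells transcribe from the inactive X, had 0 UMIs in the macroscopic library and 10348 in the early one, and the Y-linked Eif2s3y had 370 in the macroscopic library and 4 in the early one. Barcodes were put into classes by raw UMIs. A hepatocyte barcode had at least 0.5% of its UMIs from Alb, and was split at 0.05% of UMIs from Malat1, a nuclear RNA. Duct barcodes had at least 2 UMIs of Krt19 and Krt7, Kupffer barcodes at least 3 of Clec4f, Cd5l and Marco, other macrophage barcodes at least 3 of Gpnmb and Mmp12, and T cell barcodes at least 2 of Cd3e and Trbc2. A barcode could pass several gates, as 5 did in the macroscopic library and 115 in the early one. B cell, dendritic and endothelial barcodes were gated for context among barcodes that passed none of these. The context gates could overlap each other.

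The chain genes and the H2-DM genes lie within the MHC on chromosome 17 of mm10, and Ciita and Cd74 lie elsewhere. H2-DMa spans chr17:34119541-34139101, H2-DMb1 chr17:34153072-34160230, H2-Ab1 chr17:34257689-34269419 and H2-Eb1 chr17:34305867-34316674, all on the plus strand, and H2-Aa spans chr17:34282744-34287823 on the minus strand. Ciita spans chr16:10480059-10528418 on the plus strand. No other counted gene overlaps a member on its own strand.

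The class II chain, invariant chain and H2-DM genes are known for a shared promoter architecture, in which an X box, bound by the RFX complex and CREB, lies upstream of a Y box, bound by NF-Y, and Ciita is recruited to the assembled factors. The RefSeq promoter table (GRCm38.p6) held 4 of the 7 members. Each entry ran from 250 bases before to 50 after the start, and was searched on both strands for an X box pattern of 14 letters, 4 of them free, with at most 1 mismatch, and a Y box pattern, GATTGG. The patterns do not overlap each other. The 150 bases upstream of the start are shown for the 3 members in which a pattern was found there, 5′ to 3′ on the gene's strand, with matches to either pattern in capitals.
H2-DMb1, chr17:34153041-34153190, plus strand: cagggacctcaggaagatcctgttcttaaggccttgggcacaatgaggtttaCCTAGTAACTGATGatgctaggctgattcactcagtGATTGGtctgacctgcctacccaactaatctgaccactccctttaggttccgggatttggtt
H2-Eb1, chr17:34305717-34305866, plus strand: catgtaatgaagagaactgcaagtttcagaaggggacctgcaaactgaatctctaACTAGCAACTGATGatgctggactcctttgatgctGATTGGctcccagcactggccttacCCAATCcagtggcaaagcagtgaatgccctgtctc
H2-Aa, chr17:34287824-34287973, minus strand: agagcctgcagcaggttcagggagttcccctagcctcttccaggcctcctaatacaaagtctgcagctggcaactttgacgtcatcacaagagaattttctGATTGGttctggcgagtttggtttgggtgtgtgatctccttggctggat

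H2-DMb1 held an exact X match starting 98 bases before its start and a Y match 22 bases after the end of the X match. H2-Eb1 held an X match with 1 mismatch at 95 bases before its start and a Y match 21 bases after it. H2-Aa held a Y match at 49 bases before its start and no X match by these letters. H2-DMa had 2 entries in the table, with no X match in either. Of the 32851 promoters searched, 1.97% held an X match with at most 1 mismatch, 0.0609% an exact one and 16.1% a Y match. In 7 promoters (0.0213%) an X match was followed by a Y match 15 to 25 bases on. A match is a description of letters and not a measured site.

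Class II RNA was present in most hepatocyte barcodes of the macroscopic lesions. The 45 macroscopic hepatocyte barcodes with Malat1 held 4779 UMIs of the 7 genes, or 1234 counts per 1000000 UMIs of the class (CPM, exact Poisson 95% interval 1199 to 1270), against 108 UMIs or 102 CPM (83.3 to 123) in the 63 early hepatocyte barcodes with Malat1. The 58 macroscopic hepatocyte barcodes with low Malat1 held 1706 CPM (1638 to 1776). The early library had only 4 barcodes with low Malat1, at a median of 93.5% mitochondrial UMIs, and 9 of their 10 class II UMIs came from 1 barcode that also passed the Kupffer gate. None of the intervals given here includes variation between animals, since they reflect counting alone.

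The antigen-presenting classes set the upper end of the scale. In the macroscopic library the other macrophages held 32703 CPM over 12 barcodes, dendritic barcodes 28449 CPM over 6, Kupffer barcodes 20874 CPM over 4 and B cells 19460 CPM over 5. Of these 4 Kupffer barcodes, 3 also passed the other macrophage gate and are counted in both classes. The 1 that passed no other gate held 3782 CPM. In the early library dendritic barcodes held 67586 CPM over 21, other macrophages 43781 CPM over 296, B cells 31953 CPM over 20 and Kupffer barcodes 9910 CPM over 1932. In the early library 96 barcodes passed both the Kupffer and the other macrophage gate. The intervals of macroscopic Kupffer and B cell barcodes overlapped, and the other neighbours among these classes did not, as gated. Of the 1582 class II UMIs of macroscopic B cell barcodes, 1077 lay in 1 barcode.

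At the low end of the macroscopic library the T cells held 83.3 CPM (44.4 to 142), from 13 Cd74 UMIs in 20 barcodes, with 0 UMIs of the other members. Early T cell barcodes held 4811 CPM as gated, but 597 and 488 of their 1127 class II UMIs lay in 2 barcodes that also passed the other macrophage gate. The 72 early T cell barcodes that passed no other gate held 129 CPM (83.6 to 191). Mouse T cells do not normally make class II and serve here as a class that should lack these genes; the source of their UMIs was not tested. Macroscopic hepatocyte barcodes lay above the interval of macroscopic T cells, and the interval of early hepatocyte barcodes overlapped that of the early T cells.

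**Figure D1:**
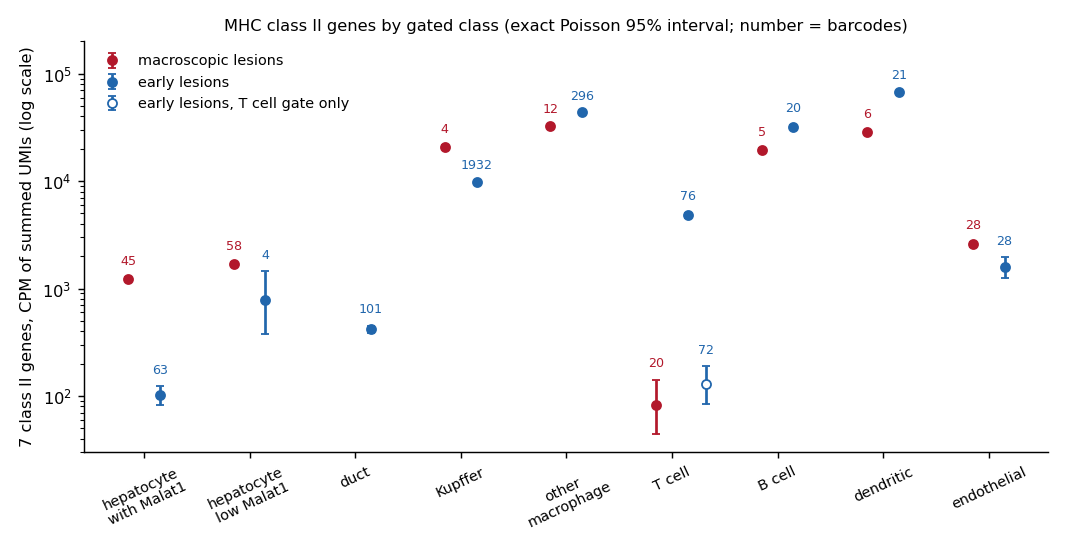
Summed CPM of the 7 class II genes (log axis) in each gated class, macroscopic library left of early, with exact Poisson 95% intervals and the number of barcodes above each point (classes under 4 barcodes are not drawn). Macroscopic hepatocyte barcodes sit at 1234 and 1706 CPM, between the antigen-presenting classes and the T cells, and early hepatocyte barcodes at 102 CPM sit beside the early T cells that pass no other gate (open circle, 129 CPM).

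The macroscopic signal was spread over many barcodes. In the macroscopic library 43 of 45 hepatocyte barcodes with Malat1 (95.6%, exact Clopper-Pearson 95% interval 84.9 to 99.5) and 56 of 58 with low Malat1 (96.6%) held a class II UMI, against 30 of 63 with Malat1 (47.6%) in the early library. The median depth of these 3 sets was 107248, 17791 and 16074 UMIs, so each barcode was also thinned to 1000 UMIs. The share was then 60.5% in macroscopic barcodes with Malat1, 60.8% in those with low Malat1, and 11.2% in early barcodes with Malat1. T cell barcodes, at median depths of 7641 UMIs in the macroscopic library and 2678 in the early one, held a class II UMI in 35.0% of macroscopic and 34.2% of early barcodes before thinning, and in 11.0% of macroscopic and 16.9% of early barcodes after it. The macroscopic hepatocyte shares stood above the T cell share at equal depth, and the early hepatocyte share did not, and is not read as expression. Thinned to 5000 UMIs, the share was 96.8% of 40 macroscopic barcodes and 25.4% of 58 early barcodes with Malat1.

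Per barcode, class II RNA ranged between 0 and 2921 CPM, at a median of 1016 CPM, in macroscopic hepatocyte barcodes with Malat1, and between 0 and 3831 CPM, at a median of 0, in early ones. H2-Aa, H2-Ab1 and Cd74 were found together in 34 of 45 macroscopic barcodes and in 2 of 63 early barcodes. The barcode with most class II UMIs held 354 of the 4779 macroscopic UMIs, and 35 of the 108 early UMIs. That early barcode had 18097 UMIs, of which 20 were Cd74 and 14 H2-Ab1, and 0 UMIs of the 5 pan-macrophage genes. The low-Malat1 barcodes of the macroscopic library ranged between 0 and 4533 CPM, at a median of 998 CPM.

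The alpha and beta chain genes, which form the peptide groove, were all higher in macroscopic than in early hepatocyte barcodes with Malat1. H2-Aa, the alpha chain of the I-A molecule, had 184 UMIs (47.5 CPM) in the macroscopic library and 10 (9.40 CPM) in the early one, a ratio of 5.05 (exact binomial 95% interval 2.69 to 10.7). H2-Ab1, the beta chain of I-A, had 491 UMIs (127 CPM) in the macroscopic library and 33 (31.0 CPM) in the early one, a ratio of 4.09 (2.87 to 6.003). H2-Eb1, the beta chain of the I-E molecule, had 52 UMIs (13.4 CPM) in the macroscopic library and a single UMI in the early one, which leaves its ratio of 14.3 with an interval of 2.45 to 575. The 3 genes were found in 34, 39 and 22 of the 45 macroscopic barcodes and in 10, 16 and 1 of the 63 early ones.

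Cd74 (chr18:60803848-60812652, plus strand), the invariant chain that occupies the groove of new class II molecules, had 3814 UMIs (985 CPM) in macroscopic hepatocyte barcodes with Malat1 and 54 (50.8 CPM) in early ones, a ratio of 19.4 (14.8 to 25.9). H2-DMa, the alpha chain of the peptide exchange factor, had 129 UMIs (33.3 CPM) in the macroscopic library and 1 in the early one, a ratio of 35.4 (6.25 to 1410). Its partner H2-DMb1 had 95 UMIs (24.5 CPM) in the macroscopic library and 7 (6.58 CPM) in the early one, a ratio of 3.73 (1.74 to 9.52). The intervals of Cd74 and H2-Ab1 did not overlap, so the members did not all stand in the same ratio between the libraries. Ciita, the transactivator, had 14 UMIs in 11 macroscopic barcodes (3.62 CPM) and 2 UMIs in 1 early barcode (1.88 CPM), a ratio of 1.92 with an interval of 0.441 to 17.4. A difference in Ciita was not detectable at this depth. With 3 UMIs as the limit that a count of 0 allows, macroscopic T cells could have held up to 19.2 CPM of each member at 0. H2-Aa, H2-Ab1, H2-DMa and H2-DMb1 in macroscopic hepatocyte barcodes lay above that limit, and H2-Eb1 and Ciita below it.

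**Figure D2:**
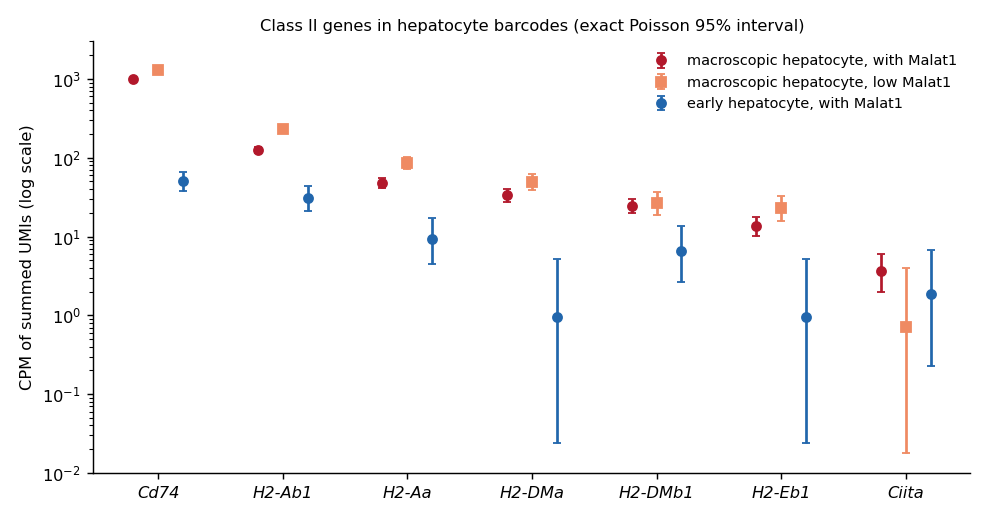
CPM of 3' UMIs of each class II gene (log axis, not comparable between genes) in macroscopic hepatocyte barcodes with Malat1 (red circles) and with low Malat1 (orange squares) and in early hepatocyte barcodes with Malat1 (blue circles), with exact Poisson 95% intervals. Cd74 stands at 985 CPM in macroscopic and 50.8 CPM in early barcodes with Malat1, and only for Ciita do those intervals overlap.

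The 7 genes together were 12.2-fold higher in macroscopic than in early hepatocyte barcodes with Malat1 (10.0 to 14.8, log2 3.60). A gene was measured where it reached 10 CPM in 1 library and 20 UMIs in both together, which 6 of the 7 members did. H2-Aa, H2-Eb1, H2-DMa and H2-DMb1 reached 10 CPM in the macroscopic library alone, so they could be called higher but not lower. All 6 were at least 2-fold higher, and of 9173 genes measured 10.1% passed 2-fold upwards and 14.8% downwards. The members were listed for this contrast, and nothing is read from that count. The median gene stood at -0.13 (log2), and with median-of-ratios scaling the calls were 1265 higher and 970 lower (56.6% higher), against 927 and 1357 (40.6% higher) by CPM. With equal weight per barcode the log2 ratio of the class II sum was 2.56, and without the barcode with most class II UMIs in each library it was 4.11.

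RNA of antigen-presenting cells in the hepatocyte barcodes was measured with the same counts. Hepatocyte markers were all present in both libraries, at 65398 CPM in macroscopic and 56012 CPM in early barcodes with Malat1 over 10 genes. The 5 pan-macrophage genes (C1qa, C1qb, C1qc, Csf1r and Adgre1) held 31 UMIs (8.01 CPM, 4 of 5 genes found) in macroscopic barcodes and 52 UMIs (48.9 CPM, 5 of 5 found) in early ones. The libraries also differed in macrophages, with Kupffer barcodes 1.66% of those kept in the macroscopic library and 73.7% in the early one. The source of the class II UMIs was not tested. In macroscopic barcodes Clec4f and Cd5l had 1 UMI each, Marco and Adgre1 0, and Lyz2, which myeloid cells make in quantity, 45. The B cell genes Cd79a and Ms4a1 were at 0, with 15 UMIs of Ebf1 and 1 of Cd79b, and of the 6 dendritic genes only Flt3 was found, with 1 UMI. Duct markers held 3031 CPM in macroscopic and 5587 CPM in early barcodes, and among them Krt19 and Krt7 had 4 UMIs each in the macroscopic library, against 45 and 22 UMIs in the early one.

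Class II RNA was also found in barcodes without a UMI of the leukocyte and macrophage set. The 17 macroscopic barcodes with Malat1 that held 0 UMIs of Ptprc, Cd3e, Cd79a, Clec4f, Cd5l, Marco, Lyz2 and the 3 C1q genes had 1163 CPM of class II (1079 to 1253), with class II UMIs in 15 of 17. These 17 barcodes had a median depth of 15786 UMIs, against 126836 UMIs in the 28 that held a UMI of the set and 1247 CPM of class II, so the absence of the set goes with shallower barcodes. The 18 such early barcodes had 79.5 CPM (48.6 to 123). Among macroscopic barcodes with low Malat1 the 47 without such UMIs had 1528 CPM (1451 to 1608). The low-Malat1 barcode with most class II UMIs (374 of 82498 UMIs) also held 70 pan-macrophage and 68 Lyz2 UMIs and passed the other macrophage gate. In barcodes of at most 50000 UMIs, which leaves out 28 of the 45 macroscopic barcodes with Malat1, class II stood at 1028 CPM over 17 macroscopic barcodes and 102 CPM over 62 early ones. No doublet caller was run on these small classes.

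**Figure D3:**
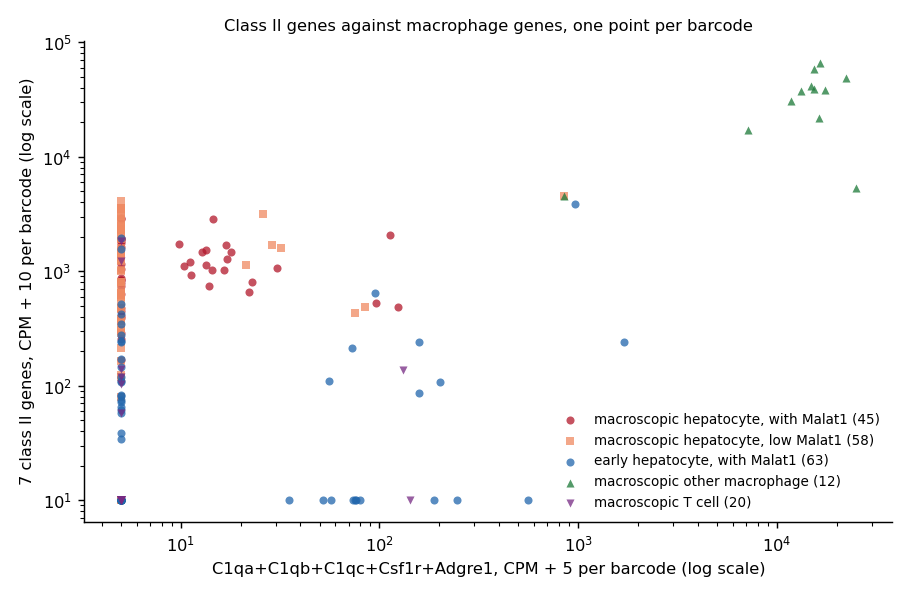
Class II CPM against CPM of 5 pan-macrophage genes, 1 point per barcode, both on log axes with 10 and 5 CPM added. Macroscopic hepatocyte barcodes lie near 1000 CPM of class II at low or no macrophage RNA, apart from the other macrophages at upper right, and 1 low-Malat1 barcode that passed both gates lies between them.

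The ratio of class II UMIs to C1q UMIs was 159 (111 to 236) in macroscopic hepatocyte barcodes with Malat1 and 31.8 (25.3 to 40.6) in those with low Malat1, against 2.81 in macroscopic other macrophages and 1.28 in macroscopic Kupffer barcodes. In the early library it was 3.18 (2.14 to 4.82) in hepatocyte barcodes with Malat1 and 2.11 (1.84 to 2.43) in duct barcodes, against 4.50 in other macrophages and 0.812 in Kupffer barcodes. Several of these values rest on barcodes that passed a macrophage gate as well. In barcodes that passed no other gate the ratio was 402 (172 to 1239) over 57 low-Malat1 barcodes with 5 C1q UMIs, against 75 C1q UMIs as gated, and 159 (111 to 236) over 44 macroscopic barcodes with Malat1. In early barcodes that passed no other gate it was 6.33 (3.42 to 12.8) over 51 hepatocyte barcodes with Malat1 and 17.7 (11.6 to 28.2) over 89 duct barcodes. Thus the macroscopic hepatocyte ratios lay above those of the macrophages in the same library with and without such barcodes. They did not stand apart from all classes. Macroscopic B cell barcodes held 1582 class II UMIs to 1 C1q UMI, dendritic barcodes 3124 to 0, and endothelial barcodes had a ratio of 109 (63.4 to 205). These context classes could share barcodes. In both the B cell and the endothelial class the top barcode held 1077 class II UMIs at 36789 CPM. It gave most of the 1415 endothelial class II UMIs, so that ratio is not read as one of endothelial cells. Among early barcodes that passed no other gate the other macrophages had 7.12 (6.99 to 7.25) and the Kupffer barcodes 0.716, so the duct ratio lay above both, where as gated it lay between them, and the interval of the hepatocyte ratio took in the other macrophage value.

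The members also stood in other proportions to each other in macroscopic hepatocyte barcodes than in macroscopic other macrophages. These are ratios of 3' UMIs, not corrected for length, and only their differences between classes carry meaning. Cd74 over H2-Aa was 20.7 (17.9 to 24.2) in macroscopic hepatocyte barcodes with Malat1 and 14.9 (12.3 to 18.0) in those with low Malat1, against 2.66 (2.54 to 2.79) in macroscopic other macrophages, 2.74 in B cells and 2.06 in dendritic barcodes. H2-Ab1 over H2-Aa was 2.67 (2.25 to 3.18) in the macroscopic barcodes with Malat1 and 2.70 with low Malat1, against 0.939 (0.887 to 0.994) in other macrophages. H2-Eb1 over H2-Ab1 was 0.106 (0.0780 to 0.141) with Malat1 and 0.0979 with low Malat1, against 0.0206 (0.0152 to 0.0275) in other macrophages. Both hepatocyte classes thus held more Cd74, H2-Ab1 and H2-Eb1 for each H2-Aa than the other macrophages did, beyond counting error. Over the 57 low-Malat1 barcodes that passed no other gate Cd74 over H2-Aa was 19.99 (15.9 to 25.4). In macroscopic B cells Cd74 over H2-Ab1 was 2.51 (2.21 to 2.85), below both macroscopic hepatocyte classes. H2-Eb1 over H2-Ab1 was 0.0434 (0.0240 to 0.0725) in macroscopic B cells. That lay below the interval of macroscopic hepatocyte barcodes with Malat1 and overlapped that of low Malat1 (0.0658 to 0.141). Against the early B cells not every ratio stood apart. H2-Eb1 over H2-Ab1 was 0.0964 (0.0538 to 0.161) in early B cells, and Cd74 over H2-Ab1 was 7.77 (7.07 to 8.55) in macroscopic hepatocyte barcodes with Malat1 and 5.50 (4.88 to 6.20) in those with low Malat1, against 6.19 (5.25 to 7.33) in early B cells.

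Early hepatocyte barcodes had a Cd74 over H2-Aa ratio of 5.40 (2.72 to 11.9) and an H2-Ab1 over H2-Aa ratio of 3.30 (1.59 to 7.51). The early Kupffer barcodes had 2.40 and 1.08 for these ratios, and the early other macrophages 2.13 and 0.753. With 10 H2-Aa UMIs in all, the early hepatocyte ratios rest on few counts. In the 51 barcodes that passed no other gate Cd74 over H2-Aa was 5.0 (2.31 to 12.4), an interval that takes in the early Kupffer value.

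**Figure D4:**
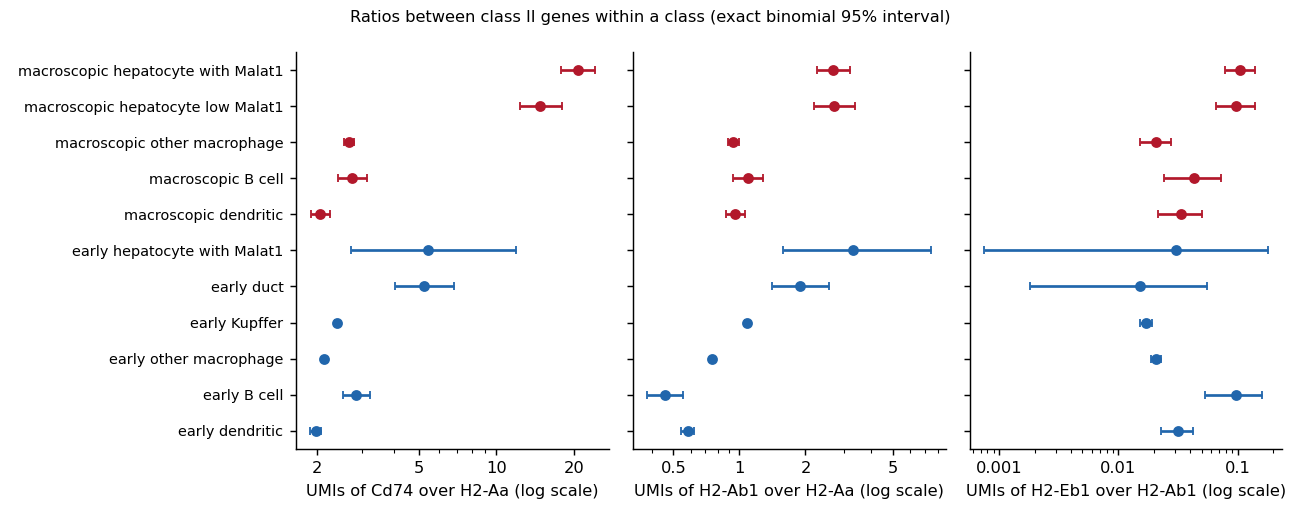
Ratios of UMIs between class II genes (log axes) by library and class, with exact binomial 95% intervals. The 2 macroscopic hepatocyte classes stand at 20.7 and 14.9 for Cd74 over H2-Aa, where the antigen-presenting classes drawn lie between 1.98 and 2.84.

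Within the macroscopic library, class II RNA was not lower in hepatocyte barcodes with little Malat1, although most measured genes were. Mitochondrial genes gave 0.220% of UMIs in the median low-Malat1 barcode and 7.59% in the median barcode with Malat1, and their class II sum was 1.38-fold that of barcodes with Malat1 (1.32 to 1.45). H2-Ab1 stood at 234 CPM with low Malat1 and 127 CPM with Malat1 (1.85-fold, 1.60 to 2.13), H2-Aa at 86.6 CPM with low Malat1 and 47.5 CPM with Malat1 (1.82-fold, 1.44 to 2.305), and H2-DMb1 at 26.5 CPM with low Malat1 and 24.5 CPM with Malat1 (1.08-fold, 0.717 to 1.59). A low-Malat1 barcode that passed the other macrophage gate held 43 of the 121 H2-Aa UMIs. In barcodes passing no other gate the sum was 1529 CPM with low Malat1 and 1240 CPM with Malat1. There H2-Ab1 stood at 193 CPM with low Malat1 and 127 CPM with Malat1. H2-Aa stood at 59.3 CPM (46.9 to 74.0) with low Malat1 and 47.6 CPM (40.9 to 55.0) with Malat1, so its intervals overlapped. Of the 6 measured members, 0 passed 2-fold in either direction, and their median was 0.67 (log2), against -0.81 over all 8430 measured genes, of which 1.66% passed 2-fold upwards and 46.2% downwards. Ciita had 1 UMI with low Malat1 and 14 with Malat1, a ratio of 0.198 with an interval of 0.00468 to 1.301. Of the 7 class II transcription factors 6 were measured here. Of these, 4 passed 2-fold downwards and 0 upwards, beside the 46.2% and 1.66% of all measured genes. They ranged between -2.75 and 0.83 (log2). Nfya, Creb1 and the unmeasured Rfx5 had 4, 5 and 0 of 1397429 UMIs with low Malat1. With Malat1 they had 61, 93 and 33 of 3872359 UMIs. Their part in the class II level was not tested.

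Endosomal proteases cut the invariant chain and prepare peptides for class II. Of 5 measured, 0 passed 2-fold upwards and 2 passed it downwards in macroscopic over early hepatocyte barcodes with Malat1, where 10.1% of 9173 genes passed it upwards and 14.8% downwards, with a median of -0.70 (log2) against -0.13 over all genes. Ctsl, a cathepsin that degrades the invariant chain in thymic epithelium, stood at 221 CPM in macroscopic and 481 CPM in early barcodes, and the asparaginyl endopeptidase Lgmn at 45.2 CPM in macroscopic and 99.7 CPM in early ones. Ctss, which does this in macrophages and dendritic cells, had 3 UMIs in macroscopic and 6 in early hepatocyte barcodes and was not measured. Of the 7 class II transcription factors 0 passed 2-fold upwards and 1, Rfxank, passed it downwards (9.04 CPM macroscopic, 23.5 CPM early), a share near the 14.8% of all measured genes. Nfya, a subunit of NF-Y, stood at 15.8 CPM in macroscopic and 9.40 CPM in early barcodes, a ratio of 1.68 with an interval of 0.852 to 3.67.

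Genes of interferon gamma signalling moved in both directions. Of its 6 signal genes 1 was at least 2-fold higher, Irf1, a transcription factor that acts on the Ciita promoter, at 52.9 CPM in macroscopic and 19.7 CPM in early hepatocyte barcodes with Malat1 (2.68-fold, 1.71 to 4.42). Of 7 measured targets among 13 listed, 3 passed 2-fold upwards and 2 downwards, with a median of 0.34 (log2), beside the 10.1% upwards and 14.8% downwards of all measured genes. Both counts are small. The chemokine Cxcl10 stood at 389 CPM in macroscopic and 80.9 CPM in early barcodes (4.82-fold, 3.87 to 6.06), and the interferon-induced GTPases Igtp and Irgm2 were 2.56-fold and 2.62-fold higher. Gbp2 stood at 4.39 CPM in macroscopic and 12.2 CPM in early barcodes, and Iigp1 at 60.9 CPM in macroscopic and 145 CPM in early ones (0.421-fold, 0.342 to 0.519).

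Class I genes, which present cytosolic peptides to CD8+ T cells in nearly all nucleated cells, had 1 call. Of 11 measured, 1 was at least 2-fold higher (the immunoproteasome subunit Psmb8, 359 CPM macroscopic and 170.2 CPM early, 2.11-fold) and 0 at least 2-fold lower, with a median of 0.45 (log2), so the upward share was near the 10.1% of all measured genes. B2m, the light chain of class I molecules, stood at 1647 CPM in macroscopic and 864 CPM in early barcodes (1.91-fold, 1.78 to 2.04), and H2-K1 at 1987 CPM in macroscopic and 1418 CPM in early ones (1.40-fold, 1.33 to 1.48). None of the 6 co-stimulation genes and none of the 4 accessory class II genes among the features was measured. Cd80, Cd86 and Cd40, which give T cells co-stimulatory signals, had 3, 0 and 9 UMIs in macroscopic barcodes and 1, 4 and 0 UMIs in early ones. H2-DMb2, the other H2-DM beta chain, had 14 UMIs in macroscopic and 1 in early barcodes.

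**Figure D5:**
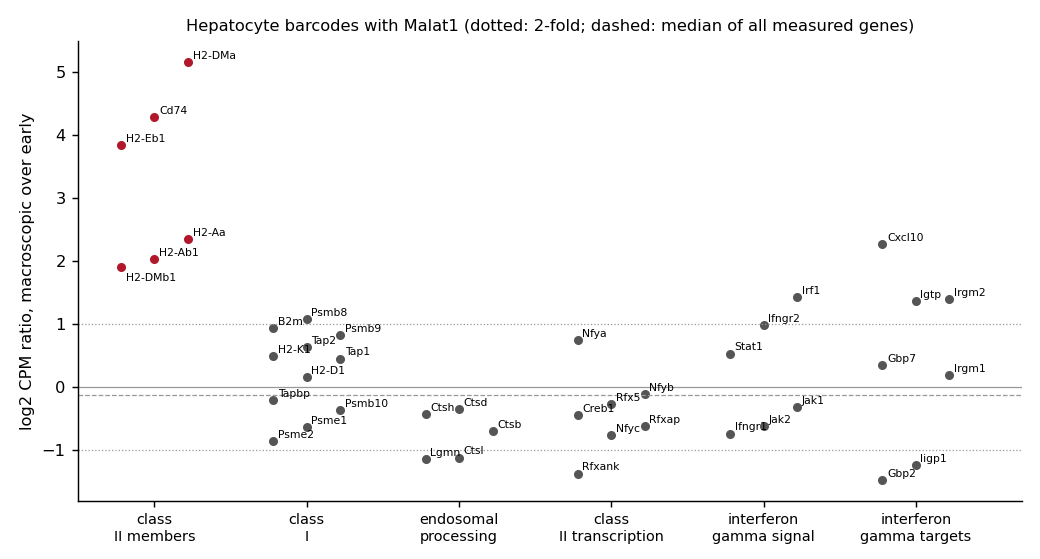
Log2 ratio of CPM, macroscopic over early, for each measured gene of the class II members and 5 related lists in hepatocyte barcodes with Malat1, with dotted lines at 2-fold and a dashed line at the median of all measured genes (-0.13). The 6 measured members lie between 1.90 and 5.15, and the class I genes between -0.86 and 1.08.

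Across single barcodes, members of the set varied together. In the 45 macroscopic hepatocyte barcodes with Malat1, Cd74 and the summed chain genes had Pearson r = 0.68 and Spearman rho = 0.67 on log2 values, and class II and class I sums had r = 0.48 and rho = 0.41. In the 58 with low Malat1, class II and class I sums had r = 0.75 and rho = 0.77, and class II and the duct marker sum had r = 0.64 and rho = 0.63. With Malat1 the duct marker sum had r = 0.05 and rho = 0.09, and Alb r = -0.11 and rho = -0.39. Points of a class share 1 library, and class II also went with the UMIs of the barcode (r = 0.51 with Malat1 and 0.43 with low Malat1), so these values are descriptions. Between class II and pan-macrophage RNA r was 0.04 in the barcodes with Malat1, and 0.19 in those with low Malat1.

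Duct barcodes, which carry biliary keratins, held class II RNA in the early library. The 101 early duct barcodes held 631 UMIs, or 419 CPM (387 to 453), and 85.1% of them held a class II UMI, or 22.2% after thinning to 1000 UMIs, against 16.9% in early T cells. H2-Ab1 had 132 UMIs, H2-Aa 70 and Cd74 365, with a Cd74 over H2-Aa ratio of 5.21 (4.03 to 6.83). The barcode with most class II UMIs, 193, also held 297 pan-macrophage UMIs and passed the Kupffer gate, and 89 duct barcodes that passed no other gate held 306 CPM (277 to 337), with a Cd74 over H2-Aa ratio of 10.2 (6.73 to 16.3) from 24 H2-Aa UMIs. The 38 duct barcodes without leukocyte or macrophage UMIs held 387 CPM (332 to 447). The only duct barcode of the macroscopic library held 6 class II UMIs, or 247 CPM (90.8 to 538), and also passed the hepatocyte gate.

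In other macrophages, which express the set as part of antigen presentation, all 7 members stood lower in the macroscopic library. The sum was 32703 CPM over 12 macroscopic barcodes and 43781 CPM over 296 early ones, a ratio of 0.747 (0.733 to 0.761). Of the 12, 1 also passed the hepatocyte gate. It held 82498 of the 357423 UMIs of the class but only 374 class II UMIs (4533 CPM), and so lowered the macroscopic values as gated. H2-DMa had a ratio of 0.554 (0.449 to 0.678) and Ciita, with 17 macroscopic and 224 early UMIs, 0.518 (0.296 to 0.848), and the intervals of all members but H2-Eb1 lay below 1. Of the 7 measured members 0 passed 2-fold in either direction, where 12.2% of 7916 genes passed it upwards and 17.8% downwards. In barcodes passing no other gate the sum was 43184 CPM over 8 macroscopic and 55937 CPM over 197 early barcodes. There Ciita stood at 77.9 CPM (45.4 to 125) in macroscopic and 122 CPM (106 to 141) in early barcodes. The intervals of Ciita and of H2-Eb1 thus overlapped, and those of the other members did not. The median barcode stood at 37950.1 CPM in the macroscopic library and 43317 CPM in the early one, and the ranges overlapped.

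Kupffer barcodes, the resident macrophages of the liver, could be described only in the early library, since 3 of the 4 macroscopic ones also passed another gate. The 1932 early barcodes had a median of 5202 CPM, between 0 and 73036 CPM, and 97.2% of them held a class II UMI. Cd74 was found in 90.3% of them, H2-Ab1 in 81.9%, H2-Aa in 76.9% and Ciita in 6.06%. In T cells that passed no other gate, 1 member was measured between the libraries, Cd74, with 13 macroscopic and 11 early UMIs (1.47-fold, 0.606 to 3.61), beside 12.0% of 2551 genes that passed 2-fold upwards and 12.1% downwards.

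The gates set the membership of the classes, and barcodes near them held the following class II levels. Barcodes with 0.5 to 0.6% of UMIs from Alb held 1878 CPM over 8 macroscopic and 92.7 CPM over 5 early barcodes, and those just outside, at 0.4 to 0.5%, held 346 CPM over 4 macroscopic and 882 CPM over 13 early barcodes. Among macroscopic hepatocyte barcodes, 2 with 0.05 to 0.1% Malat1 held 2758 CPM and 3 with 0.02 to 0.05% held 1775 CPM.

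Over 13 class sums with at least 20 barcodes, the genes whose log2(CPM + 10) followed the mean of H2-Aa, H2-Ab1, H2-Eb1 and Cd74 most closely, among 13213 genes compared, were Irf5 (r = 0.93), Ly86 (0.93), Pld4 (0.91), Lat2 (0.90) and B3gnt8 (0.89). Irf5 is a transcription factor of myeloid and B cells and Ly86 a partner of a Toll-like receptor homologue. Ly86 had 0.258 CPM in macroscopic hepatocyte barcodes with Malat1 and 422 CPM in early Kupffer barcodes, and Irf5 had 10.1 CPM in those hepatocyte barcodes and 137 CPM in early Kupffer barcodes. Ly86 was thus almost absent from the hepatocyte barcodes that held Cd74 at 985 CPM. The class sums of this ranking were taken as gated. Cd74 stood at 2476 CPM in the early T cell sum, mostly from 2 barcodes that also passed the other macrophage gate. The early Kupffer and other macrophage sums shared 96 barcodes.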

How the data were processed

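The authors deposited, for each of the 2 libraries, a matrix of whole-number UMI counts per gene and barcode. Per the submitters' processing notes, Cell Ranger 3.0.2, Seurat 2.3.0 and the mm10 build were used, and their parameters are not given in the sources used here. Python 3.11.15, NumPy 2.4.6, SciPy 1.17.1, pandas 2.3.3 and Matplotlib 3.10.9 were used here. Barcodes with at least 1000 UMIs were kept, which left 7260252 UMIs in the macroscopic and 12202299 in the early library, and were gated by raw UMIs. Doublets were not called. Barcodes passing several gates were kept and left out in an alternative. CPM is the summed UMIs of a gene over those of the class.

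With 1 library per stage no test was run. Levels carry exact Poisson, shares exact Clopper-Pearson and ratios exact conditional binomial 95% intervals, which cover counting error only. Thinned shares are expected shares under drawing without replacement. Members and gene lists were chosen with earlier results of these data known. Named genes are the members, the genes of the lists and the 5 genes most alike in pattern. Calling of 2-fold differences was tested on simulated counts. The limits of 50000 UMIs and 5000 thinned UMIs and the removal of barcodes with keratin UMIs were added after seeing the data. So were the restriction of context gates to barcodes outside the main gates and the member ratios in barcodes passing no other gate. No column of another series was used.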

Additional observations from a re-analysis of the deposited data

Results flagged for a closer look

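The class II sum stood higher in macroscopic than in early hepatocyte barcodes with Malat1 (log2 3.60) and lower in macroscopic than in early other macrophage barcodes (log2 -0.42). The opposite direction in these 2 classes drew attention to the pair. The difference was not tested, since each stage is 1 library. Among the 12 macroscopic other macrophage barcodes, 1 that also passed the hepatocyte gate held 82498 of their 357423 UMIs and lowered their sum. In other macrophage barcodes passing no other gate the sum was 43184 CPM over 8 macroscopic and 55937 CPM over 197 early barcodes.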

How the results depend on the processing

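No alternative run reversed the sign of the class II ratio between stages, but median-of-ratios scaling turned the split of gene calls to 1265 higher and 970 lower, against 927 and 1357. Of the values recomputed, 38 stayed within the counting interval of the reported value (gene counts within 1.5 times) and 35 did not. With only barcodes passing a single gate, class II stood at 82.4 CPM in early hepatocyte barcodes with Malat1 (log2 ratio 3.91), 306 in early duct, 8659.7 in early Kupffer, 55937 in early other macrophage and 129 in early T cell barcodes. With doubled gates it was 1197 CPM in macroscopic and 75.3 in early hepatocyte barcodes (log2 ratio 3.99), 46364 in early other macrophages and 5477 in early T cells. With equal weight per barcode it was 1124 CPM in macroscopic and 190.0 in early hepatocyte barcodes (log2 ratio 2.56), 179 in macroscopic T cells, and 7975, 41439.9 and 1115 in early Kupffer, other macrophage and T cell barcodes. Without the barcode with most class II UMIs the early values were 69.8 CPM in hepatocyte (log2 ratio 4.11), 295 in duct, 9722 in Kupffer, 43365 in other macrophage and 2448 in T cell barcodes. Without barcodes holding leukocyte or macrophage UMIs it was 1163 CPM in macroscopic and 79.5 in early hepatocyte barcodes and 387 in early duct barcodes. At least 2000 UMIs gave 10686, 44128 and 5375 CPM in early Kupffer, other macrophage and T cell barcodes and a class II share of 100% in macroscopic hepatocyte barcodes. At most 25% mitochondrial UMIs gave 10002 CPM in early Kupffer barcodes, and at most 50000 UMIs 1028 CPM in macroscopic hepatocyte barcodes. Thinning to 1000 UMIs gave a share of 60.5%. Without a filter beyond 4 UMIs, 2362 genes were at least 2-fold lower. The cause of these moves was not tested.

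No paired analysis was possible because each stage is 1 library and the groups share only the number 1. Depth limits Ciita and H2-Eb1 in early hepatocyte barcodes, where they had 2 and 1 UMIs.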

Other observations

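Most measured interferon gamma targets stood lower in macroscopic than in early other macrophages, and 2 of 4 measured co-stimulation genes passed 2-fold downwards and 0 upwards. Of 7 measured targets, 6 passed 2-fold downwards and 0 upwards, with a median of -1.87 (log2) against -0.14 over all measured genes. Of these 7916 genes 12.2% passed 2-fold upwards and 17.8% downwards. Among the targets, Gbp2, Gbp3, Gbp7, Igtp, Iigp1 and Cxcl9 reached 10 CPM in early barcodes alone. Only a lower call was open to them and to the co-stimulation gene Cd40, and only a higher one to Cd80. The split of these calls is therefore not read as a direction. Irgm1 reached 10 CPM in both libraries, at 28.0 CPM in macroscopic and 29.5 CPM in early barcodes. Cxcl9, a chemokine for T cells, had 0 UMIs in macroscopic and 219 in early barcodes, a ratio of at most 0.0935 with 3 UMIs as the limit that the macroscopic count of 0 allows. Cd274, the ligand of the checkpoint receptor PD-1, had 4 UMIs (11.2 CPM) in macroscopic and 158 (64.8 CPM) in early barcodes, a ratio of 0.173 (0.0465 to 0.451). Cd86, which gives T cells a co-stimulatory signal, stood at 92.3 CPM in macroscopic and 69.7 CPM in early barcodes, a ratio of 1.33 (0.884 to 1.93). The macroscopic sum rests on 12 barcodes, and 1 of them, which also passed the hepatocyte gate, held 82498 of its 357423 UMIs. In simulated counts of this comparison 8.06% of unchanged genes were called 2-fold different.

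Barcodes that passed no gate also held class II RNA, 7307 CPM over 106 macroscopic and 35190.2 CPM over 263 early barcodes. The 28 macroscopic endothelial barcodes held 2598 CPM, with class II UMIs in 10 of 28, and the 28 early ones 1580 CPM, with class II UMIs in 7 of 28. In each library 1 barcode held most of these UMIs, 1077 of 1415 in the macroscopic and 78 of 84 in the early one. The median endothelial barcode stood at 0 CPM in both, so the sums are not read as a level of endothelial cells.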
